A study of Mus musculus with 26 samples.

Results

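The regions described here are intergenic stretches of the mouse genome that carried both RNA polymerase II (Pol II) and H3K27ac in RAW264.7 cells, a macrophage-like tumour line of the mouse. They were taken from the peaks called in 8 Pol II libraries. Peaks that overlapped by at least 1 bp were merged into 46133 regions, and 26209 of these were called in at least 4 of the 8 libraries, 26154 of them on assembled chromosomes. The 5309 that lay outside every RefSeq gene span plus 1 kb on either side were kept, then the 4725 that overlapped a peak in at least 4 of 8 H3K27ac libraries. Last, the 4049 that met no region called in the 4 input libraries were kept. Input libraries hold chromatin with no immunoprecipitation. The members thus number 4049 of 46133 merged Pol II regions, against 20845 regions over genes called in at least 4 libraries. Members were thus chosen by their Pol II and H3K27ac peaks and by input regions, so that presence of the marks is not a result. The rule used no comparison between treatments or lines, and the response to LPS, the difference between the lines, the nearest genes and the HA peaks are what was measured.

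All libraries came from 2 stable RAW264.7 lines in which doxycycline switches on either HA-tagged Nur77 or GFP. Every group received 50 ng/ml doxycycline for 18 h, so untreated cells expressed the transgene too. Cells were then given 500 ng/ml lipopolysaccharide (LPS), a component of the bacterial outer membrane, for 0 or 1 h. Pol II and H3K27ac were each profiled in 2 libraries of the untreated GFP line, the LPS-treated GFP line, the untreated Nur77 line and the LPS-treated Nur77 line. HA, the tag on Nur77, was profiled in the Nur77 line alone, in 3 untreated and 3 LPS libraries, from cells that had received a second crosslinker. Input was sequenced once per group. Each construct is represented by 1 line, so an effect of Nur77 and a difference between the lines cannot be told apart. The HA signal is that of a doxycycline-driven protein. The labels do not say that the replicates were separate cultures, so p-values measure only the spread between these libraries, which may be technical. A ChIP signal is an average over cells, and a larger share of cells with Pol II cannot be told apart from more Pol II per cell.

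Enhancers are regulatory DNA elements that raise transcription of genes at a distance. Active enhancers are flanked by nucleosomes acetylated on lysine 27 of histone H3, and Pol II is recruited to many of them and transcribes short, unstable enhancer RNAs. In macrophages LPS acts through Toll-like receptor 4 and the transcription factors NF-kB and AP-1, which bind enhancers opened by lineage factors such as PU.1 and C/EBP. Nur77, encoded by Nr4a1, is an orphan nuclear receptor and itself an immediate-early gene. The title of the study concerns Nur77 in the resolution of macrophage inflammation and AP-1 target genes.

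Promoter sequences of listed genes are shown for the neighbours of members that changed with LPS in both lines, with the DNA letters of NF-kB-type matches in capitals. Of 10 such genes, 6 had a start site in the RefSeq promoter table (GRCm38.p6, 250 bases before to 50 after the start), with 7 windows of 300 bases. The 3 windows printed belong to Nfkbia, the inhibitor of NF-kB, to the chemokine Cxcl1 and to Runx1, a transcription factor of blood cells. The letters searched, on both strands, were TGANTCA for AP-1 (present in 7.81% of 32851 promoter windows), GGAANNTCC for NF-kB (4.26%), AAAGGTCA for the Nur77 monomer site NBRE (1.51%), GAGGAAGT for ETS factors such as PU.1 (3.2%) and TTGCGCAA for C/EBP (0.183%). A match is a description of these letters and not of binding.
Nfkbia, chr12:55492598-55492897, minus strand: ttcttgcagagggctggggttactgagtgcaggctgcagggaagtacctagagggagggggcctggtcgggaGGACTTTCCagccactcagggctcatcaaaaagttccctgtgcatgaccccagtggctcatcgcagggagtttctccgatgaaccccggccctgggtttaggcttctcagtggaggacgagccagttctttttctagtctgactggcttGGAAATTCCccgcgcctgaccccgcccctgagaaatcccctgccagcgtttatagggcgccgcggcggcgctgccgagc
Cxcl1, chr5:90890995-90891294, plus strand: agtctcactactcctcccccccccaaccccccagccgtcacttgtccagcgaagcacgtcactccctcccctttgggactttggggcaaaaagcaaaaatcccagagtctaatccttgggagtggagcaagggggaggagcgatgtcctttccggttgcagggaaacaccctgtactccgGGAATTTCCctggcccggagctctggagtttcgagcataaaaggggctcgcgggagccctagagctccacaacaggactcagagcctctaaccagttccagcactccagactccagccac
Runx1, chr16:92826025-92826324, minus strand: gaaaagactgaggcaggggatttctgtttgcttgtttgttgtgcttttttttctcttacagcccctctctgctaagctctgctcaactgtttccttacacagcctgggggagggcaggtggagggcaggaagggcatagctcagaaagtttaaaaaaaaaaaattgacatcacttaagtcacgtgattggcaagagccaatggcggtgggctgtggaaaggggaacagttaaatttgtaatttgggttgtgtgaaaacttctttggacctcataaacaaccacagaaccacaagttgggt
The Nfkbia window held 2 NF-kB matches, the first of them read on the other strand, and the Cxcl1 window 1, and the Runx1 window held none of the 5 motifs. Pol II peaks of all 8 libraries covered the Nfkbia and Runx1 windows. No Pol II peak reached the Cxcl1 window, since the peaks of the 4 LPS libraries over Cxcl1 began downstream of it. HA peaks covered the Runx1 window in all 6 HA libraries and the Nfkbia window in 1. NF-kB matches were thus in 2 of the 7 windows, and the 4 not printed (Cd3e, Irf2, Plin2 and a second start of Runx1) held none of the 5 motifs. Of the 7 windows, 5 had Pol II in all 8 libraries and 2 had HA in all 6. Sequences of the members themselves were not analysed here.

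Sequencing depth was 11.9 to 23.1 M tags per Pol II library, 22.3 to 28.4 M per H3K27ac library, 6.41 to 18.2 M per HA library and 14.02 to 23.4 M per input library. Each Pol II library had a peak at 2845 to 3756 of the members (70.3% to 92.8%), each H3K27ac library at 3597 to 3883 and each HA library at 2049 to 2711. The first untreated Nur77 Pol II library stood apart, with the fewest members called and a fragment length of 1550 bp in its header against 174 to 318 bp in the other 7. Both HA libraries numbered 3 had narrower peaks than the other HA libraries, with median widths of 342 and 426 bp against 826 to 1016 bp. All 7 macrophage marker genes examined had a Pol II region in all 8 libraries, while of 10 marker genes of other cell types 8 had one in no library, Cd4 in all 8 and Ms4a1 in 1. Levels differed widely, with macrophage medians from 0.376 tags per kb at Adgre1 to 2410 at Cd68. Adgre1 and Itgam (4.7) lay below Cd4 (14.0), and the other macrophage genes above it. Levels below start from the deposited tags per 10 M mapped, added up for each library over all of its peaks inside a region and then scaled between libraries (scaled tags).

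The members were shorter and held fewer Pol II tags than regions over genes. Their median width was 2095 bp (quartiles 1652 and 2819 bp, range 513 to 35537 bp) against 2930 bp over genes (quartiles 2021 and 5345 bp). The median deposited Pol II signal was 30.9 tags per 10 M, against 90.53 over genes. Pol II was called in all 8 libraries at 2053 members (50.7%), in 7 at 514, in 6 at 470, in 5 at 421 and in the required 4 at 591. Of all 26154 regions, 65.2% were called in all 8. Members at the minimum of 4 Pol II libraries had a median of 9.0 tags (3.53 to 192.7), and the 508 regions just outside it, called in 3, had 4.921 (2.46 to 29.44). At the H3K27ac minimum, 261 members with a peak in exactly 4 libraries had a median of 12.12 Pol II tags, and the 103 regions with 3 had 9.2. The main test of Pol II was run on regions with a peak in all 8 libraries, so 1996 members took no part in it.

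Within 1 h of LPS, Pol II rose at many members and fell at many others, in both lines. Large rises lay near the ubiquitin ligase gene Peli1, the cytokine gene Lif, the antiproliferative gene Btg1, the nocturnin gene Noct and the actin regulator gene Mical3, and distal to the NF-kB inhibitor gene Tnfaip3. Large falls included members near the chromatin protein gene Hmgb1, the lysosomal precursor gene Psap, Hint1 and Magef1. In the GFP line 235 of the 2053 tested members rose and 216 fell (limma, Benjamini-Hochberg adjusted p below 0.05), or 11.4% and 10.5%. Over all 17081 tested regions 10.0% rose and 8.55% fell. In the Nur77 line 308 rose and 400 fell (15.0% and 19.5%), against 15.2% and 15.0% of all regions. The median log2 change of the tested members was -0.08 in the GFP line and -0.12 in the Nur77 line, against 0.0059 and 0.0090 over all tested regions. With the replicate number as a block, 392 rose and 421 fell in the GFP line, and 458 and 576 in the Nur77 line. Without scaling between libraries, the median of all regions was shifted to -0.15 and -0.40, and the rises made up 40.4% instead of 52.1% of the GFP calls and 24.4% instead of 43.5% of the Nur77 calls. Per kb of peak, 124 rose and 99 fell in the GFP line and 206 and 164 in the Nur77 line. The GFP count of 451 was 215 without the first LPS library of that line, and 264 and 252 without its first and second untreated libraries. The Nur77 count of 708 was 400 and 345 without the first and second untreated libraries of that line.

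At the member 40417 bp upstream of Peli1 (chr11:21042815-21050866), whose product is a ubiquitin ligase of Toll-like receptor signalling, Pol II went from 59.4 and 71.2 to 885 and 523 scaled tags in the GFP line. The Nur77 line went from 63.6 and 44.3 to 1069 and 752. All 4 LPS libraries lay far above all 4 untreated libraries. The log2 changes were 3.37 and 4.05 (SE 0.31, limma adjusted p = 0.000563 and 0.000198). The covered length grew from 2.40 to 7.14 kb in the GFP line and from 2.90 to 7.26 kb in the Nur77 line, and per kb the log2 changes were 1.79 and 2.34. The region at the Peli1 gene itself changed by 1.501 and 1.63.

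The member 4572 bp from the lncRNA gene Gm12496, whose nearest coding gene at 27015 bp is the choline transporter gene Slc44a1, held 33.3 and 28.4 scaled tags of Pol II in untreated GFP cells and 396 and 399 after LPS (chr4:53408397-53413372). The Nur77 libraries held 23.9 and 32.7 and then 551 and 538. Replicates lay close together and the treatments did not overlap, with log2 changes of 3.65 and 4.23 (SE 0.23, limma adjusted p = 0.000171 and 0.0001) and, per kb, 2.098 and 1.98. A member 2814 bp from the lncRNA gene Gm11958 lay 34448 bp from Lif, a cytokine of the interleukin-6 family (chr11:4306962-4310612). There Pol II went from 26.5 and 23.4 to 367 and 344 in the GFP line and from 17.9 and 31.4 to 379 and 397 in the Nur77 line. Again no untreated library reached an LPS library, and the log2 changes were 3.78 and 3.98 (SE 0.29, limma adjusted p = 0.000314 and 0.000182). The member at Gm51814, 60793 bp from Tnfaip3, the deubiquitinase that restrains NF-kB signalling, went from 8.55 and 7.97 to 169 and 100.1 in GFP cells and from 14.5 and 15.5 to 219 and 186 in Nur77 cells (chr10:19076203-19079502; log2 changes 3.82 and 3.67). The member 2358 bp downstream of Mical3 rose by 4.01 and 3.97 while the region over the Mical3 gene changed by -0.97 and -1.23.

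The other 7 members with the largest rises were less even between replicates or lay together. At Gm33897, 65969 bp from the antiproliferative gene Btg1, the untreated libraries ranged from 19.98 to 61.3 scaled tags and the LPS libraries from 172 to 687, with log2 changes of 4.02 and 3.10. At Gm40044, 17629 bp from the nocturnin gene Noct, the untreated range was 14.7 to 83.8 and the LPS range 673 to 962, with log2 changes of 3.47 and 4.66. A set of 3 neighbouring members, 48470 to 67722 bp from the pituitary transcription factor gene Pou1f1, rose together, by 2.38 to 3.16 in the GFP line and 3.76 to 3.97 in the Nur77 line. Members at Gm7430 near the ubiquitin ligase gene Cop1 (3.67 and 3.55) and at Sowahc (3.66 and 2.84) completed the group. In all 12 members the 4 LPS libraries lay above the 4 untreated ones.

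Among the falls, the member 7245 bp from BC005537 was the most even (chr13:24785190-24794412). Its Pol II went from 909 and 845 to 121 and 117 scaled tags in the GFP line and from 1308 and 1116 to 140.2 and 114 in the Nur77 line. Every untreated library held several times the tags of every LPS library, with log2 changes of -2.87 and -3.25 (SE 0.17, limma adjusted p = 0.000154 and 9.43e-05) and, per kb, -1.67 and -1.73. The member 2545 bp upstream of Psap, the precursor of the saposins that assist lysosomal breakdown of sphingolipids, went from 142 and 240.1 to 25.96 and 44.7 in the GFP line (chr10:60272027-60275083). Nur77 cells went from 211 and 289 to 27.5 and 29.6. The 2 treatments did not overlap, the log2 changes were -2.40 and -3.07 (SE 0.37, limma adjusted p = 0.00450 and 0.00108), and the region over the Psap gene changed by -0.98 and -1.36. Close to Hmgb1, which encodes a chromatin protein released as a danger signal, a member changed by -2.69 and -3.23 (chr5:149030315-149032649). The largest fall, at the pseudogene Hmgb1-ps4 on another chromosome (chr19:6667680-6671653), went from 124 and 201 to 8.14 and 18.4 in GFP cells and from 220.0 and 341 to 15.0 and 11.1 in Nur77 cells, or by -3.57 and -4.30. A further 5 lay at Gm11747 (-3.07 and -3.75), Hint1 (-2.88 and -3.54), Magef1 (-2.83 and -3.68), Gm41964 near the G-protein regulator gene Rgs2 (-2.83 and -2.82) and Gm34322 near the corepressor gene Tle3 (-2.79 and -2.38). No LPS library reached an untreated library at any of these 9.

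**Figure D1:**
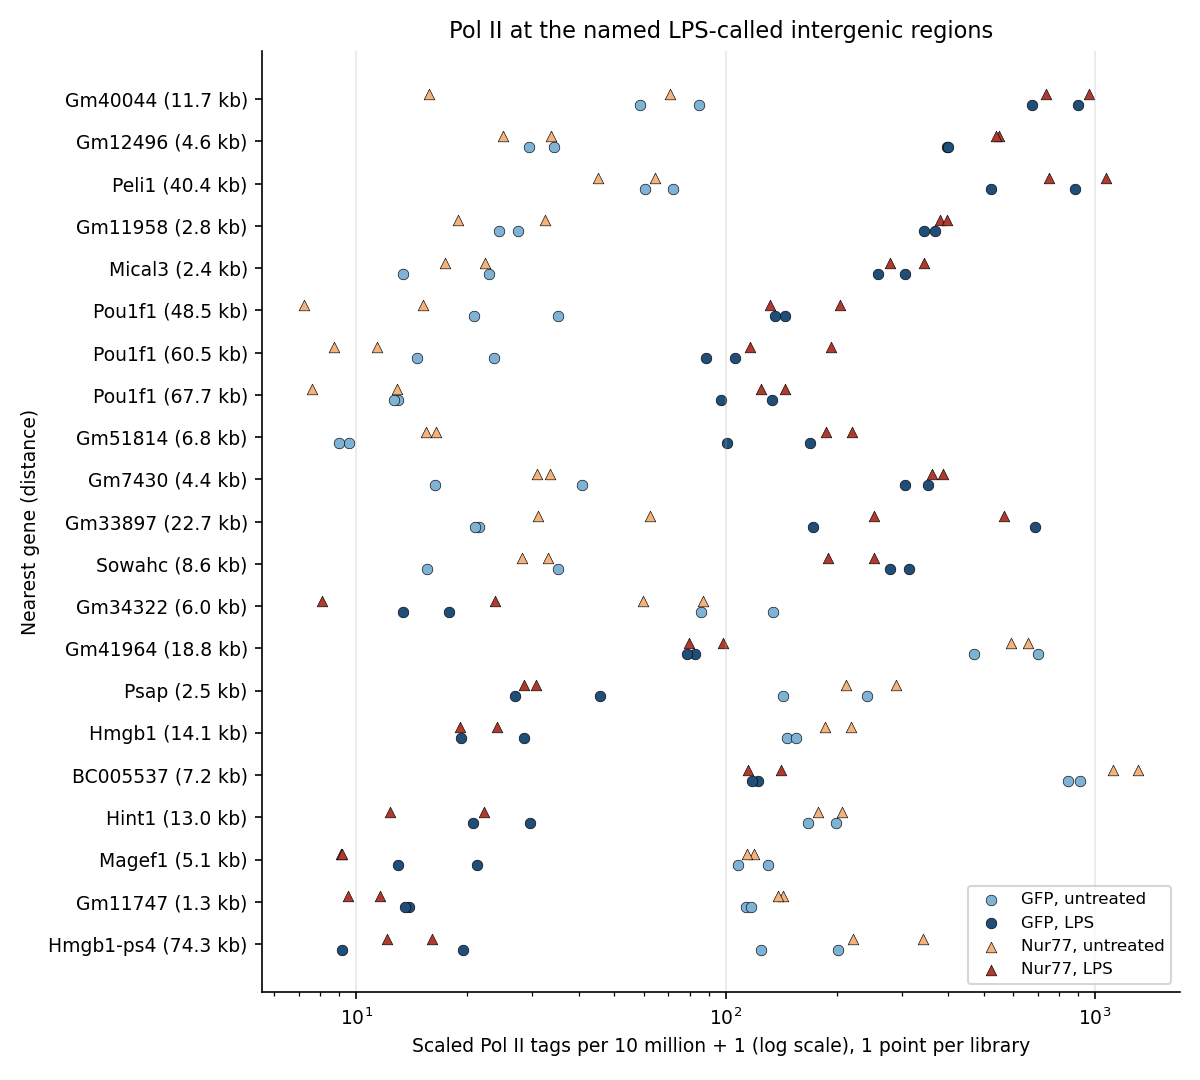
Pol II at 21 members named for their change with LPS. The horizontal axis is scaled tags plus 1 on a log scale, with 1 point per library coloured by line and treatment. The upper 12 members rose and the lower 9 fell, and at each the 4 LPS libraries lie on the same side of the 4 untreated libraries.

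By tags summed over the region, the strongest Pol II among the members was at a 27824 bp region near Zscan2 (chr7:80825437-80853260), where it went from 1166 and 1258 to 5903 and 4078 scaled tags in the GFP line and from 1012 and 1193 to 7969.9 and 5815 in the Nur77 line. All LPS libraries were above all untreated ones, with log2 changes of 2.02 and 2.63 (SE 0.24, limma adjusted p = 0.00157 and 0.000382). High Pol II did not come with a rise everywhere. Next in level, the member at 1110002J07Rik, near the reticulum-shaping gene Reep3, had log2 changes of 2.11 and 2.32, the one near the lamina gene Tmpo 0.40 and 0.71 and the one at D130051D11Rik, near the lipid receptor gene Ppara, -0.61 and -0.49.

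The responses of the 2 lines to LPS ran in parallel. The 2 sets of changes share no library, and across 2053 members their log2 values correlated with r = 0.915 and rho = 0.898, a description over members that are not independent replicates. Of the members called higher, 207 were called in both lines, which is 88.1% of the 235 in GFP cells and 67.2% of the 308 in Nur77 cells. Of those called lower, 204 were shared, 94.4% of the 216 and 51.0% of the 400. No member was called in opposite directions. In the test of the difference itself, the line by LPS interaction, limma called 0 members in either direction, and 57 had an unadjusted p below 0.05. Over all regions the shares called were 0.0% and 0.0%. A larger number of calls in the Nur77 line is therefore not shown to be a larger response.

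**Figure D2:**
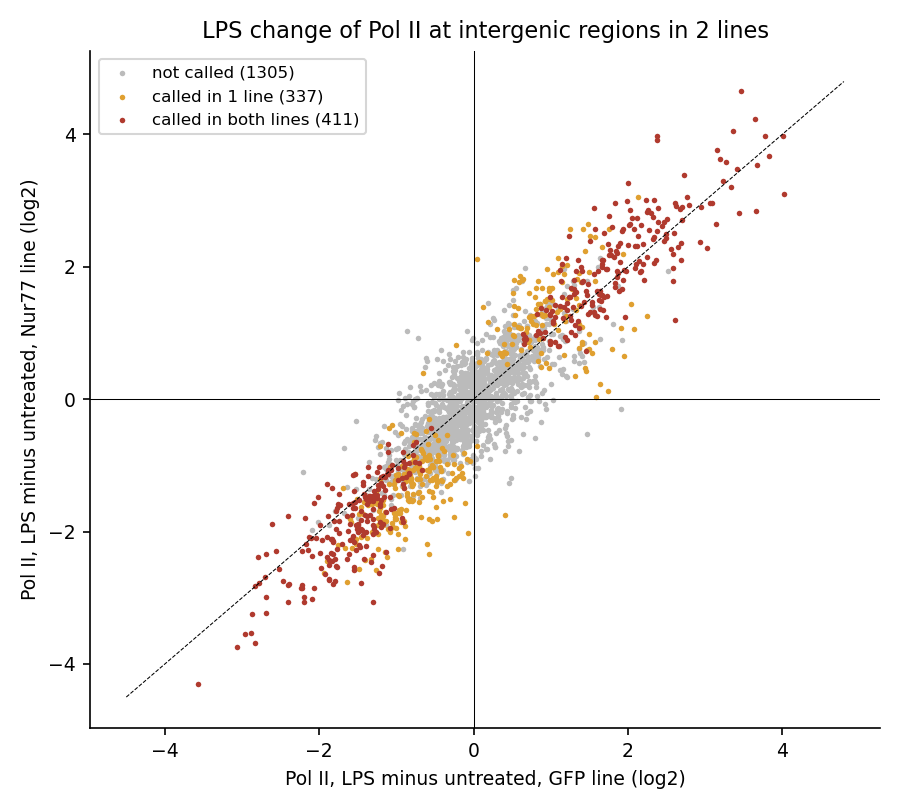
Pol II log2 change with LPS in the GFP line (horizontal) and in the Nur77 line (vertical), with 1 point for each of the 2053 tested members. The 411 members called in both lines lie along the diagonal in the upper right and lower left, 337 were called in 1 line and 1305 in none.

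Members with a peak in only some libraries were left out of the fit over regions with peaks in all 8. Pol II peaks were present in all 4 LPS libraries and in no untreated library at 158 members (3.9%, against 2.54% of all 26154 regions). The reverse held for 87 members (2.15% against 1.42%). The member 24233 bp from Tnfrsf17, which encodes a receptor of the tumour necrosis factor family, had no peak in the 4 untreated libraries and 156 and 157 scaled tags in the GFP and 171 and 170.1 in the Nur77 libraries after LPS (chr16:11284911-11288999). The LPS libraries at Gm2477 held 509 and 376 in GFP and 438 and 382 in Nur77 cells, and at Gm30633 they held 151 and 224 in GFP and 329.8 and 282 in Nur77 cells. Map3k19 and Gm5178 completed the 5 with the most Pol II. A peak that was not called is listed as 0 and is not an absence of Pol II. With such zeros taken as values, all 4049 members could be fitted, and limma called 696 in the GFP and 1132 in the Nur77 line. The share of all regions called in that fit is not given here, so these 2 counts have no background. The 158 were then all called higher and the 87 all lower in both lines, a direction that the pattern itself fixes. Among members that lost their peaks, the one near the cyclin gene Ccnd1 held 19.2 and 20 scaled tags in untreated GFP cells and 95.5 and 134 in untreated Nur77 cells (chr7:144979146-144982844). Others were near Gm8973, the autophagy gene Uvrag and Ankrd28. A further 188 members (4.64% against 3.07% of all regions) were called in every library but the first untreated Nur77 library, the one with the long fragment length.

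Members called for both Pol II and H3K27ac changed in the same direction with LPS, with 1 exception in each line. Of 3094 members under an H3K27ac region called in all 8 libraries (3013 different regions), 1078 rose and 800 fell in the GFP line (34.8% and 25.9%), against 27.5% and 25.5% of all 27094 tested regions. In the Nur77 line 1098 rose and 849 fell (35.5% and 27.4%, against 28.5% and 27.1%). The median log2 change of the members was 0.11 in the GFP line, and 0.0099 over all regions. Without scaling the median of all regions was at -0.32 and -0.34, and the share of rises went from 57.4% to 35.9% of the GFP calls and from 56.4% to 34.3% of the Nur77 calls, so the balance of rises and falls rests on the scaling. Of the 235 members with higher Pol II in GFP cells, 222 also had higher H3K27ac (94.5%), which is 33.8% of the 656 with higher H3K27ac. Of the 216 with lower Pol II, 193 had lower H3K27ac (89.4%, and 38.4% of 502) and 1 had higher. For Nur77 cells the shared calls were 294 of 308 (95.5%, and 44.7% of 658) and 323 of 400 (80.8%, and 59.4% of 544), with 1 opposite and 45 tested but not called for H3K27ac. Pol II and H3K27ac changes correlated with r = 0.886 and rho = 0.883 in GFP cells and r = 0.898 and rho = 0.897 in Nur77 cells over 1912 members. Over genes the values were 0.836 and 0.819, and 0.847 and 0.836, over 13846 regions. The 2 marks were measured in separate libraries but at the same positions, and members are not replicates.

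At the Peli1 member H3K27ac went from 237 and 236 to 1137 and 1008 scaled tags in the GFP line and from 184 and 181 to 963 and 982 in the Nur77 line. All LPS libraries were far above all untreated ones, and the log2 changes were 2.17 and 2.41. The largest H3K27ac rises outside the members already described were near Manbal (3.43 and 4.53), the glucose transporter gene Slc5a1 (3.30 and 4.38), the lysosomal chloride transporter gene Clcn7 (3.25 and 3.22) and the ubiquitin ligase gene Rnf145 (3.20 and 3.17). At the Tnfrsf17 member H3K27ac changed by 3.21 and 3.44. Large falls were near Lonrf2 (-2.38 and -1.15), Gm40654 (-2.21 and -2.54), the sphingosine kinase gene Sphk1 (-2.14 and -2.09), Gm8595 (-1.72 and -2.88) and the sialyltransferase gene St6gal1 (-1.66 and -2.41). At BC005537 Pol II changed by -2.87 and -3.25 and H3K27ac by -0.996 and -1.04, the latter over a 33856 bp region that reached into a gene.

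**Figure D3:**
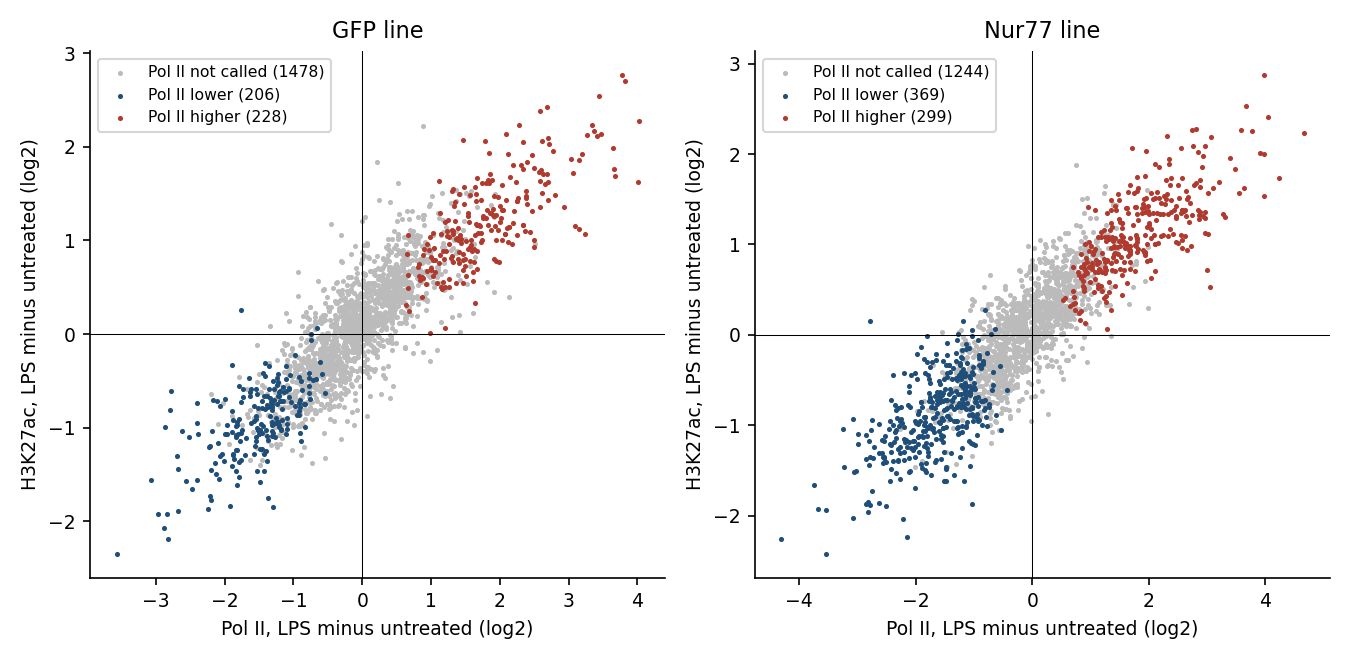
H3K27ac log2 change with LPS (vertical) against Pol II log2 change (horizontal) in the GFP line (left) and the Nur77 line (right), for the 1912 members tested for both. Members with higher Pol II (228 in GFP, 299 in Nur77) lie above 0 for H3K27ac with few exceptions, and those with lower Pol II (206 and 369) lie mostly below it.

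Few differences of Pol II between the lines were called without the replicate block, and more with it. Without LPS, 1 member was higher and 2 were lower in the Nur77 line (limma adjusted p below 0.05). Their shares of the tested members were 0.0487% and 0.0974%, against 0.111% and 0.0585% of all regions. An unadjusted limma p below 0.05 was found at 313 members. The higher member lay near the pseudogene Vmn1r-ps137 (chr16:3081305-3084606), with 17.1 and 17.7 scaled tags in GFP and 267 and 158 in Nur77 cells. It kept that difference after LPS, with 9.71 and 11.4 against 222 and 103, and all 4 Nur77 libraries lay above all 4 GFP libraries (log2 differences 3.49 and 3.72, SE 0.43, limma adjusted p = 0.0467 and 0.0305; per kb 2.28 and 1.94). No HA peak overlapped it. Near Plxdc1 (chr11:97899741-97911204) Pol II was 566 and 511 in untreated GFP cells and 190.2 and 224 in untreated Nur77 cells, and 769 and 692 against 276 and 322 after LPS. Every Nur77 library was below every GFP library, with log2 differences of -1.38 and -1.29. Peaks there covered 9.51 and 10.5 kb in GFP against 4.67 and 4.84 kb in Nur77 cells, and per kb the differences were -0.16 and -0.24. The other lower member lay at D730003I15Rik, 53791 bp from Atf3, a stress-induced factor of the ATF/CREB family (chr1:191237124-191245248). It held 140.2 and 158 in untreated GFP and 53.7 and 49.3 in untreated Nur77 cells, a log2 difference of -1.51 (-0.43 per kb), and was higher after LPS in both, at 566 and 617 in GFP and 380.0 and 456 in Nur77 cells. With the replicate block 67 members were higher and 72 lower. None was called when any library other than the second untreated GFP library was left out, the libraries of the LPS groups included, which only lend their spread.

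After LPS, 21 of the 2053 tested members were higher and 14 lower in the Nur77 line. Their shares were 1.02% and 0.682%, close to the 0.872% and 0.65% of all regions. These counts rose to 158 and 169 with the replicate block and were 0 in all when any LPS library or any untreated Nur77 library was left out, and 20 and 17 in all without the first and second untreated GFP libraries. Near Gm41040 (chr13:100872354-100875126) Pol II was 25.4 and 41.8 scaled tags in GFP and 265 and 189 in Nur77 cells after LPS, and 28.2 and 42.8 against 219.7 and 159.6 before it. The lines did not overlap under either treatment, and the log2 difference after LPS was 2.74 (SE 0.36, limma adjusted p = 0.0317) and 1.60 per kb. The member 1550 bp from Atp6v0d2, a subunit of the lysosomal proton pump, had 26.3 and 32.4 in GFP and 100.5 and 140.0 in Nur77 cells after LPS, and 147 and 231 against 429 and 453 before it (chr4:19868098-19875288). Its log2 changes with LPS were -2.62 and -1.89, both past the test, and the line difference was 1.99 after LPS (limma adjusted p = 0.0327) and 1.26 before it (0.151, and 0.0134 with the replicate block). Per kb the changes with LPS were -0.997 and -1.04, and the line differences 0.67 after LPS and 0.71 before it. The lowest in the Nur77 line was at Gm15500, near Calcb, which encodes a calcitonin-related peptide (chr7:114709197-114713447), with 315 and 134 in GFP and 23.5 and 28.2 in Nur77 cells. No Nur77 library reached a GFP library there, with a log2 difference of -2.95 (limma adjusted p = 0.0462) and -1.11 per kb. Other members among the largest differences after LPS were near Gm18318, Gm17745, 4930445E18Rik, Myo1d and Gm13914, by 1.87 to 2.57, and near the CREB-family gene Creb5 (-2.51), Gm39050, Mir680-3, the secreted Wnt antagonist gene Sfrp5, Grasp, Gm14634 and Gm9439, the last at -1.43.

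For H3K27ac more members were called between the lines. These counts come from another set of regions and a separate fit, so they do not compare the 2 marks. Untreated, 592 members were higher and 683 lower in the Nur77 line (19.1% and 22.1%, against 15.4% and 15.3% of all regions). After LPS, 574 were higher and 755 lower (18.6% and 24.4%, against 16.5% and 19.5%). Per kb of peak the number called was 722 instead of 1275 before and 766 instead of 1329 after LPS, and without the second untreated Nur77 library the first was 844. Near Abi1, which encodes an actin regulator (chr2:23046971-23053922), H3K27ac was 9.53 and 10.8 scaled tags in untreated and 12.8 and 8.08 in LPS-treated GFP cells. The Nur77 libraries held 74.3 and 78.9 untreated and 77.1 and 72.1 after LPS, all several times the GFP values, with log2 differences of 2.80 and 2.75. Near Fpgt the order was reversed, with 195 and 201 and then 323 and 294 in GFP cells and 21.6 and 13.9 and then 43.4 and 42.8 in Nur77 cells (log2 differences -3.44 and -2.81). The largest difference was near Ccdc25 (4.43 and 4.10). Of the 21 members with higher Pol II in the Nur77 line after LPS, 20 also had higher H3K27ac, and of the 14 with lower Pol II, 13 had lower H3K27ac; the other 2 were not tested for H3K27ac. Across 1912 members the line differences of the 2 marks correlated with r = 0.751 and rho = 0.732 untreated and r = 0.729 and rho = 0.704 after LPS. Both marks came from the same 2 lines, so this relation is between lines and not a measure of Nur77 alone. The Pol II line difference before LPS correlated with that after LPS, which shares no library with it, with r = 0.732 and rho = 0.692 over 2053 members.

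The line by LPS interaction asks whether LPS changed a member differently in the 2 lines. For H3K27ac it called 4 members with a more positive and 13 with a more negative change in the Nur77 line. Their shares of the 3094 tested members were 0.129% and 0.42%, close to the 0.118% and 0.476% of all regions. The member 20799 bp downstream of Nfkbia (chr12:55462329-55468610) was among the 13 with a more negative change. Its H3K27ac went from 261 and 233 to 672 and 729 scaled tags in the GFP line and from 225 and 245 to 365 and 398 in the Nur77 line. It rose in every LPS library of both lines, and less in the Nur77 line: the log2 changes were 1.502 and 0.70 and their difference -0.81 (limma adjusted p = 0.0188). Pol II at this member went from 335 and 169.6 to 1946 and 1108 in GFP cells and from 202 and 222 to 406 and 583 in Nur77 cells. The Pol II log2 changes were 2.62 and 1.20 (SE 0.37, limma adjusted p = 0.00323 and 0.0437), and per kb 1.68 and 0.33. The difference of the Pol II changes was not called, nor was the lower Pol II of the Nur77 line after LPS (-1.59, limma adjusted p = 0.0839), although the latter was with the replicate block (0.0196). HA at the member was 43.5, 64.1 and 43.9 before LPS and 88.1, 124 and 90.8 after it, a log2 change of 0.99 (SE 0.28, limma adjusted p = 0.0740), and with the replicate block the limma adjusted p was 1.51e-06. The region over Nfkbia itself rose by 3.59 and 2.59 in Pol II.

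Among the members with the opposite interaction, the one at Gm8888 (chr15:96732939-96746293) had H3K27ac of 235 and 245 and then 269 and 248 scaled tags in GFP cells. In Nur77 cells it went from 470.1 and 473 to 914 and 805. The rise was present in the Nur77 line, while in the GFP line the 2 treatments lay close together, with log2 changes of 0.11 and 0.86 and a difference of 0.76 (limma adjusted p = 0.0164). Pol II there changed by 0.13 and 1.39. H3K27ac near Cd93, a receptor of the C-type lectin group XIV, changed by -0.58 and 0.04, and near the phosphatase gene Ptpn11 by 0.52 and -0.35. The 17 interaction calls became 0 without the second untreated GFP library or either untreated Nur77 library, 2 without the first library of the untreated GFP, LPS GFP or LPS Nur77 group, and 0 per kb of peak.

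A typical member lay a few kb from a gene. The median distance to the nearest gene was 8776 bp (quartiles 4052 and 18789 bp), and to the nearest coding gene 17359 bp. Within 50 kb of a gene were 3753 members (92.7%), and the nearest gene was coding for 2000, a lncRNA for 1252, a pseudogene for 623, a microRNA for 25 and of another type for 149. Rises with LPS were more frequent among the distant members. In the GFP line 7.28% of the 673 tested members at 1 to 5 kb rose and 12.3% fell, against 18.7% and 4.33% of the 300 at 20 to 50 kb. In the Nur77 line the shares were 10.3% and 21.4%, against 22% and 12.3%. Members at 50 to 100 kb gave 18.4% and 6.9% of 87 in the GFP line and 26.4% and 11.5% in the Nur77 line, and the 19 tested beyond 100 kb were too few to read. Restricted to at least 10 kb, 872 members were tested, of which 14.7% rose and 7.91% fell in GFP cells. On the side of the gene, 12.3% of 698 upstream members fell and 9.6% rose in the GFP line, against 9.53% and 12.0% of 640 downstream members. The strand of the nearest gene was not given for the other 1493 members.

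**Figure D4:**
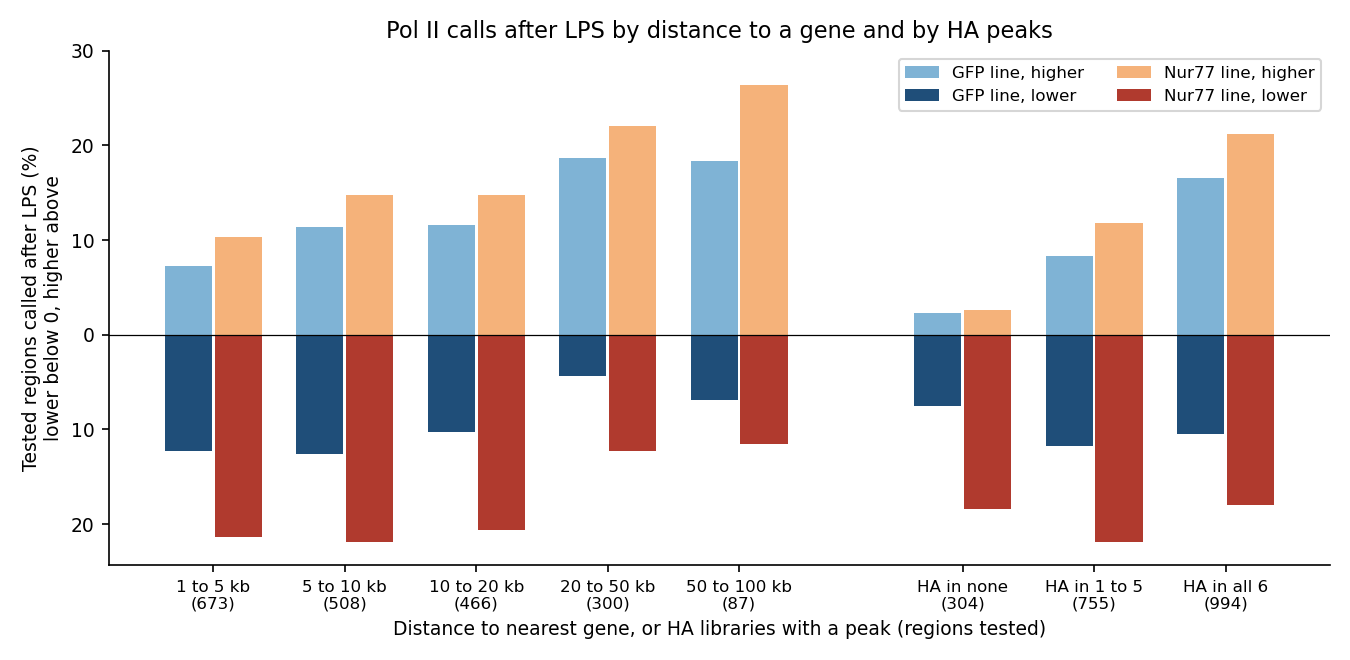
Share of tested members called higher or lower in Pol II with LPS (vertical, percent), by distance to the nearest gene (673, 508, 466, 300 and 87 members) and by the number of HA libraries with a peak (304, 755 and 994 members), in each line. The share called higher is larger in the bins beyond 20 kb and in members with HA in all 6 libraries.

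At a minority of the members that changed, the nearest gene changed in the same direction. For 1153 tested members a Pol II region with a peak in all 8 libraries overlapped the nearest gene span plus 1 kb. The one with the most tags stood for the gene, although it can reach past the gene into a neighbour. Of the 126 such members that rose in GFP cells, 48 had a gene that rose too (38.1%) and 7 a gene that fell. Over all 1153, 13.2% of the genes rose and 9.97% fell. Of 131 members that fell, 23 had a gene that fell (17.6%) and 4 a gene that rose. Among Nur77 libraries 75 of 163 rising members had a rising gene (46.0%, against 20.3% of all) and 59 of 249 falling members a falling gene (23.7%, against 15.0%). In the opposite direction, 6 of the rising members had a falling gene and 26 of the falling members a rising one (10.4%). The log2 changes of member and gene correlated with r = 0.308 and rho = 0.282 in the GFP line and r = 0.315 and rho = 0.284 in the Nur77 line, over 1153 pairs that share libraries. The nearest gene is a matter of position, and no assignment of targets was made.

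Of 32 listed cytokine and chemokine genes, 6 members lay within 50 kb and 2 were tested. The member 5670 bp upstream of Cxcl1, which encodes a neutrophil-attracting chemokine, went from 321 and 231 to 1215 and 736 scaled tags of Pol II in the GFP line (chr5:90874246-90885575). The corresponding Nur77 libraries went from 241 and 224 to 1510.1 and 1337. All LPS libraries were above all untreated ones, with log2 changes of 1.79 and 2.61 (SE 0.26, limma adjusted p = 0.00338 and 0.000506) and, per kb, 0.85 and 1.45. Its H3K27ac changed by 1.24 and 1.37, while the Pol II region over Cxcl1, which stretched past the gene toward Cxcl2, changed by 4.50 and 4.51. The other tested member, near the interferon-induced chemokine gene Cxcl9, changed by 0.42 and 0.74 and did not pass the test, except in the Nur77 line with the replicate block (limma adjusted p = 0.397 without and 0.0248 with it). Members near Il1b and Il27 had peaks in the 4 LPS libraries and in no untreated one. In the fit with missing peaks taken as 0 that pattern itself fixes a rise, so their calls there add no support. The member upstream of Il12b, a subunit of interleukin-12, ranged from 0 to 67.5 in the untreated and from 34.5 to 172 in the LPS libraries, which overlapped, and was not called in that fit. When members were assigned to the nearest coding gene instead, 16 belonged to this list, 5 were tested, and 3 rose in GFP and 4 in Nur77 cells.

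Of 32 listed genes of NF-kB signalling, 13 members lay near and 8 were tested, with 1 rise in the GFP line and 2 rises and 2 falls in the Nur77 line. With the replicate block there were 2 rises and 1 fall in the GFP line and 3 rises and 2 falls in the Nur77 line. For this and the other lists the background is 10.0% higher and 8.55% lower over all regions in the GFP line, and 15.2% and 15.0% in the Nur77 line. The median log2 changes of the 8 were -0.18 and -0.62. A second member near Nfkbia, 14046 bp downstream (chr12:55472696-55475363), went from 177 and 95.1 to 78.0 and 80.3 scaled tags in GFP cells and from 123 and 136 to 34.0 and 55.6 in Nur77 cells. In the Nur77 line both LPS libraries were below both untreated ones, and the same was true in GFP cells by a small margin. The log2 changes were -0.71 and -1.55 (SE 0.36, limma adjusted p = 0.219 and 0.0152), opposite in sign to those of the member 20799 bp away from the same gene. Upstream of Zc3h12a, which encodes an endoribonuclease that degrades inflammatory mRNAs, a member changed by -1.75 and -2.20 (limma adjusted p = 0.0609 and 0.0197, the first 0.00284 with the replicate block) while its gene region changed by 1.69 and 1.54. Downstream of Socs3, an inhibitor of cytokine signalling, the changes were 0.90 and 1.26 (limma adjusted p = 0.136 and 0.0363, the first 0.00929 with the replicate block).

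Immediate-early genes and phosphatases had 9 members near 31 listed genes, all tested, with 1 rise in the GFP line and 1 rise and 2 falls in the Nur77 line. With the replicate block there were 1 rise and 2 falls, and 2 rises and 2 falls. At the Dusp4 member 40519 bp from the gene, which encodes a phosphatase of MAP kinases, Pol II went from 526 and 417 to 2975 and 2039 in the GFP line and from 299.9 and 322 to 2482 and 2139 in the Nur77 line (chr8:34755414-34767091). The treatments were far apart in both lines, with log2 changes of 2.39 and 2.89 (SE 0.22, limma adjusted p = 0.000504 and 0.000184). A nearer member, 10126 bp from Dusp4, moved the other way, by -1.51 and -1.502 (limma adjusted p = 0.0586 and 0.0427, the first 0.00988 with the replicate block), and the Dusp4 gene region by 1.60 and 1.76. The member 4638 bp from the transcription factor gene Klf10 changed by -0.11 and -1.57, past the test in the Nur77 line alone, and this difference was not called. Another tested member, 15064 bp from Klf10, changed by 0.03 and -0.31 and was called in neither line. Chosen after its values were seen, the member 5109 bp upstream of Nr4a1, the gene of Nur77 itself, held 152 and 199.7 scaled tags in untreated and 216 and 206 in LPS-treated GFP cells. Its Nur77 libraries held 232 and 250.4 before and 362 and 265 after LPS, so the treatments lay close together, the log2 changes of 0.28 and 0.36 were not called, and HA peaks covered it in all 6 libraries.

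AP-1 family genes had 2 members near 17 listed genes, and both were left out of the fit over regions with peaks in all 8 libraries because some LPS libraries had none. Upstream of Fosb (chr7:19315520-19320458) the untreated libraries held 69.7 and 90.3 scaled tags in GFP and 64.8 and 88.7 in Nur77 cells, and the LPS libraries 7.82 and 6.75 in GFP and 8.91 and 0 in Nur77 cells. At Batf3 the untreated libraries held 30.8 and 31.9 in GFP and 24.2 and 15.7 in Nur77 cells, and 1 of the 4 LPS libraries had a peak, of 8.32. At both members every LPS library was below every untreated one. With missing peaks taken as 0, the limma adjusted p of the lower Pol II at Fosb was 0.0912 in GFP and 0.0219 in Nur77 cells. For Batf3 it was 0.0945 and 0.0309. The zeros at both members stood only in LPS libraries, so they push that fit toward a fall.

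Among 30 listed macrophage lineage and surface genes, 10 members lay near and 7 were tested, with 2 rises and 1 fall in each line, and with the replicate block 2 and 2 in the GFP and 3 and 4 in the Nur77 line. The member 11993 bp from Cd83, an activation marker of antigen-presenting cells, went from 11.6 and 43.1 to 311 and 156 in the GFP line and from 34.9 and 36.1 to 319 and 403 in the Nur77 line (chr13:43762416-43773119). Untreated libraries were low and unequal and all LPS libraries higher, with log2 changes of 3.24 and 3.30 (SE 0.57, limma adjusted p = 0.00764 and 0.00460). The covered length grew from 1.17 to 7.83 kb in GFP cells, and per kb the changes were 0.46 and 0.85. The member 37249 bp upstream of Runx1 (chr16:92863323-92870040) went from 112 and 126 to 387 and 281 in GFP cells and from 137 and 160.1 to 500.0 and 392 in Nur77 cells. No untreated library reached an LPS library, and the log2 changes of 1.47 and 1.57 were like those of the Runx1 gene region, 1.38 and 1.16. The fall was near Adgre1, the gene of the macrophage marker F4/80 (-1.10 and -1.13).

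Of 25 interferon-response genes, 8 members lay near and 4 were tested, with 1 fall in the GFP line and 1 rise and 1 fall in the Nur77 line. The member 19233 bp from the interferon regulatory factor gene Irf2 changed by -1.28 and -1.93 on the log2 scale and was called in both lines. Another tested member, 37544 bp from Irf2, changed by -1.34 and -1.56. It was called only with the replicate block (limma adjusted p = 0.160 and 0.0830 without and 0.0465 and 0.0202 with it). The member near Irf8, a factor of the macrophage lineage, changed by 0.72 and 1.24 and was called in the Nur77 line. With the replicate block it was also called in the GFP line (limma adjusted p = 0.248 without and 0.00271 with it). With the block the list had 1 rise and 2 falls in each line. Of 21 lysosomal and lipid genes, 11 members lay near and 6 were tested, with 1 rise in each line and 1 fall in the GFP and 2 in the Nur77 line, and with the replicate block 1 rise and 2 falls in the GFP and 2 and 3 in the Nur77 line. The member 13246 bp upstream of Plin2, the coat protein of lipid droplets, went from 131 and 76.7 to 389.8 and 301 in GFP cells and from 107 and 66.2 to 743 and 451 in Nur77 cells (chr4:86683463-86692255). LPS libraries were above untreated ones throughout, with log2 changes of 1.76 and 2.77 (SE 0.36, limma adjusted p = 0.0145 and 0.00153). The Atp6v0d2 member of this list fell, as described above. Near 15 housekeeping genes 4 members were found, and the 2 tested ones, both near Actb, changed by 0.18 and 0.02 and by -0.22 and -0.10 with no call. The last pair changed sign in the Nur77 line when single Nur77 libraries were left out, and the first without scaling or per kb. Of 17 genes of other cell types, the T-cell genes Cd4 and Cd3e each had a tested member, and the one near Cd3e changed by -1.34 and -1.75 on the log2 scale. Counts by list rest on few members each, and no list was tested as a set.

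A microRNA gene was the nearest gene within 50 kb of 22 members. The mature sequences are given for 4 of these genes, chosen after their values were seen, with the seed, bases 2 to 8 from the 5′ end, in capitals (RefSeq, GRCm38.p6).
miR-221-3p: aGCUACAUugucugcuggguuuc
miR-1928: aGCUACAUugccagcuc
let-7a-5p: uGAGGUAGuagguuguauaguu
miR-181c-5p: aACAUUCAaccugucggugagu
The first 2 share the seed GCUACAU. The member 48827 bp from Mir221 (chrX:19094275-19097467) had Pol II of 0 and 6.83 scaled tags in untreated and 137 and 129 in LPS-treated GFP cells, and no peak in untreated Nur77 cells against 96.9 and 99.0 after LPS. All LPS libraries were high and all untreated ones at or near 0, and with missing peaks taken as 0 the limma adjusted p was 0.0132 in GFP and 0.00549 in Nur77 cells. The zeros stood only in untreated libraries, so they push that fit toward a rise. HA peaks of all 6 libraries covered this member. The member 4682 bp from Mirlet7a-1 (chr13:48542954-48555739) went from 929 and 984 to 638 and 670.1 in GFP cells and from 1058 and 1009 to 754 and 781 in Nur77 cells, a small and even fall in both lines, with log2 changes of -0.55 and -0.43 (SE 0.13, limma adjusted p = 0.0266 and 0.0439). A member at Mir181c (chr8:84185683-84188397) went from 103 and 92.4 to 57.9 and 45.5 in GFP cells and from 76.7 and 108 to 30.4 and 43.1 in Nur77 cells, and passed the test in the Nur77 line, and with the replicate block also in the GFP line (log2 changes -0.91 and -1.31; limma adjusted p in GFP cells 0.0846 without and 0.0365 with it). At Mir1928 the changes were 0.26 and 0.43 and were not called. The microRNAs themselves were not measured.

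HA-Nur77 peaks covered most members. At least 1 of the 6 HA libraries had a peak at 3122 members (77.1%, against 73.5% of all 26154 regions and 73.9% of those over genes). All 6 had a peak at 1497 (37.0%, against 30.5% and 29.5%). A peak was present in all 3 LPS libraries and in no untreated library at 113 members (2.79%, against 2.31% of all regions), and the reverse held for 14 (0.346% against 0.275%). Members with HA in all 6 libraries had a median width of 2492 bp, against 1810 bp for the 927 with none. The part of width in the overlap was not tested. Among the 994 tested members with HA in all 6, Pol II rose with LPS at 16.6% and fell at 10.5% in GFP cells, and rose at 21.2% and fell at 18.0% in Nur77 cells. Among the 304 without HA peaks, 2.3% rose and 7.57% fell in GFP cells and 2.63% and 18.4% in Nur77 cells.

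The number of HA sites at the members called as changed with LPS depended on the fit. Over the members 1470 HA regions had a peak in all 6 libraries, and 75 rose and 18 fell with LPS (limma adjusted p below 0.05; 5.1% and 1.22%, against 3.28% and 1.35% of all 11234 regions). In the same scaled fit without a block, 346 had an unadjusted limma p below 0.05. With the replicate block 389 rose and 249 fell, and without scaling between libraries none was called. None was called when both libraries numbered 3, those with the narrow peaks, were left out, nor without the first untreated or the first LPS library. Without untreated library 3 alone 12 were called, and without LPS library 3 alone 23. At the Tnfrsf17 member HA was 18.8, 19.1 and 16.1 before LPS and 80.4, 129 and 65.3 after it. The LPS libraries were all higher than the untreated ones, with 18.0 ± 1.62 and 91.5 ± 33.2 (mean ± SD, n = 3 each) and a log2 change of 2.23 (SE 0.30, limma adjusted p = 0.00753). At E030042O20Rik, 24858 bp from Nfe2l2, the gene of the oxidative-stress factor NRF2 (chr2:75729521-75735229), HA was 285, 208 and 277 before LPS and 874, 659.6 and 896 after it. No untreated library reached an LPS library, with 257 ± 42.3 and 809.9 ± 131 (mean ± SD, n = 3 each) and a log2 change of 1.65 (SE 0.27, limma adjusted p = 0.0137), and Pol II changed by 1.85 and 2.25. Near Bckdhb, a subunit gene of branched-chain amino acid breakdown, HA was 27.1, 24.4 and 23.3 before LPS and 87.5, 111 and 95.6 after it, with Pol II at 2.32 on the log2 scale in the same line.

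The largest fall of HA was near Otulinl (chr15:27701232-27704542), where HA was 217, 187 and 294 before LPS and 63.0, 59.4 and 71.9 after it. All LPS libraries were below all untreated ones, with 233 ± 55.5 and 64.8 ± 6.42 (mean ± SD, n = 3 each) and a log2 change of -1.81 (SE 0.27, limma adjusted p = 0.0104). Pol II and H3K27ac there changed by -1.39 and -1.30 in the Nur77 line. Other falls of HA were near Gm13633, Gm5473, Gkn3, the ETS factor gene Etv5 and Eps8. Among the members with the most HA, near Pmaip1, which encodes the cell-death protein NOXA, HA was 1133, 733 and 1536 before LPS and 1028, 587 and 1185 after it (limma adjusted p = 0.714, and 0.0120 with the replicate block), and near the lectin gene Clec10a 594, 303 and 538 before LPS and 581, 305 and 429 after it. Taking the strongest HA region of each member, 28 members with higher HA were tested for Pol II in the Nur77 line, of which 21 rose and 0 fell. All 8 tested members with lower HA fell in Pol II. Of the 994 tested members with HA in all 6 libraries, Pol II rose at 21.2% and fell at 18.0% in that line. The HA calls that define the 28 and the 8 were absent without scaling, or without the first untreated or first LPS library. Over 957 members tested for both, the log2 changes of HA and Pol II correlated with r = 0.573 and rho = 0.562, from separate libraries of the same line.

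**Figure D5:**
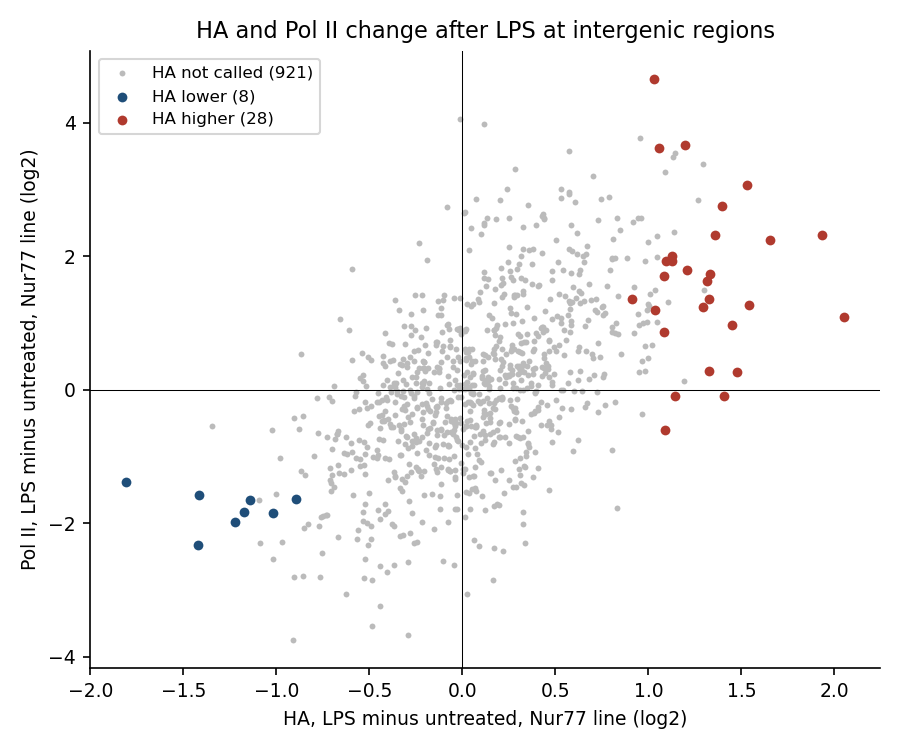
Pol II log2 change with LPS in the Nur77 line (vertical) against HA log2 change (horizontal), for the 957 members tested for both. Of the 28 members called higher in HA, 21 were called higher and 0 lower in Pol II, the 8 called lower in HA lie below 0, and 921 were not called for HA. Of the 994 tested members with HA in all 6 libraries, Pol II rose at 21.2% and fell at 18.0%.

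Some members lay close together. Joined at 12.5 kb, the distance often used to stitch enhancers, the 4049 members formed 3292 groups, and 1335 of them (33.0%) fell into 578 groups of 2 or more. There were 30 groups of 4 or more, with 133 members. The largest held 6 members each. The group at chr10:60240562-60275083, between the sulfotransferase gene Chst3 and Psap, had 4 tested members, of which 3 fell in both lines, and their log2 changes ranged from -2.40 to -1.09 in GFP cells. In the group at chr19:53258694-53304489, at the adducin gene Add3 and the MYC antagonist gene Mxi1, 3 were tested, with 1 fall in GFP cells and 2 in Nur77 cells. A group of 5 near Socs5, an inhibitor of cytokine signalling (chr17:87146773-87183973), moved the other way, with 2 of 3 tested members rising in both lines, by up to 2.69 and 2.37.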

How the data were processed

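The deposited files are HOMER findPeaks lists on mm10, 1 per library for Pol II, H3K27ac and HA. Input has lists of peaks and lists of regions, and the regions were used to choose the members. Reads were mapped with HISAT2 2.1.0 and peaks called with HOMER, per the submitters' processing notes. The HOMER version is not given in the sources used here. HA peaks used the factor style (FDR 0.001, 4-fold enrichment within 10 kb), per the file headers. Pol II and H3K27ac used the histone style that stitches regions (Poisson p 0.001). All were called with no input, per the file headers. The local filter differed in 3 H3K27ac libraries, per the file headers. The values used are the authors' deposited signal, normalized tags per 10 M mapped tags.

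Peaks were merged at 1 bp overlap. Tags were summed per region and library, scaled by trimmed means (30% of M-values and 5% of A-values), and log2(tags + 1) was fitted with limma 3.58.1 (trend, R 4.3.3) over every region with a peak in all libraries of a target. Calls use a Benjamini-Hochberg adjusted p of 0.05 over all regions, and all groups of a target share 1 spread. Tables were made with Python 3.11.15 (pandas 2.3.3, numpy 2.4.6), and the fit was tested on simulated data. Tag sums move with the called length, so changes per kb are given too. Replicate numbers paired the Pol II libraries (r = 0.347 to 0.631 over 6 pairs of groups' same-numbered deviations) and the HA libraries (0.481 to 0.834) but not the H3K27ac libraries (-0.10 to 0.089). Blocked counts stand beside the main Pol II and HA counts and most list counts. Calls shared between lines or marks, and calls by distance, side, nearest gene or HA, come from the fit without the block alone.

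The members, gene lists and tests were chosen with earlier results of these data known. Regions were named by rule: the largest changes among those called in each comparison and direction, the highest in Pol II and HA, the strongest found in 1 treatment alone, and the called or tested members within 50 kb of a listed gene. Regions on unplaced contigs (19 would have qualified), the sequences of the members and motifs in them were not analysed here. Some members that the rule names are not reported here.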

Additional observations from a re-analysis of the deposited data

Results flagged for a closer look

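The test of the line by LPS interaction called 17 members for H3K27ac, 4 with a more positive and 13 with a more negative change in the Nur77 line. Their shares of the 3094 tested members were 0.129% and 0.42%, close to the 0.118% and 0.476% of all regions. None was called per kb of peak, nor without the second untreated GFP library or either untreated Nur77 library, and 2 were without the first library of the untreated GFP, LPS GFP or LPS Nur77 group. The difference of the log2 changes (Nur77 line less GFP line) was 1.09 near Manbal, 0.76 at Gm8888, 0.62 near Cd93 and 0.58 near Pax3. It was -0.996 at Gm5473, -0.87 near Ptpn11, -0.85 at Gm38926, -0.81 near Nfkbia and -0.68 near Wdr11. Near Ptpn11 H3K27ac rose in the GFP line and was lower in the Nur77 line (0.52 and -0.35), while near Nfkbia it rose in both (by 1.502 and 0.70). Each line is 1 stable line, so Nur77 and other differences between the lines cannot be told apart.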

How the results depend on the processing

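Of the counts recomputed under other settings, 99 stayed within 1.5 times of those reported and 63 did not. With a peak required in only part of the libraries, the LPS counts for Pol II were 696 (GFP) and 1132 (Nur77), the line counts 78 (untreated) and 177 (after LPS), the H3K27ac interaction 7 and HA 270. No share over all regions is given for these counts. Per kb of peak they were 223, 370 and, for the line after LPS, 6, and for H3K27ac 722, 766 and 0. Members at least 10 kb from a gene gave 197, 309 and 15 for Pol II, 855, 884, 627, 648 and 6 for H3K27ac and 49 for HA. Without scaling the Pol II line count untreated was 6, the H3K27ac interaction 6 and HA 0. With the replicate block the Pol II counts were 813, 1034, 139 and 327 and HA 638; for H3K27ac, whose numbers share only a name, they were 1856, 1926, 1256, 1332 and 17, and the block changed no other call by over 1.5 times. Left out in turn, libraries gave 215 to 442 and 345 to 692 for LPS, 0 to 2 and 0 to 20 for the lines and 0 to 0 for the interaction in Pol II. They gave 1531 to 1928, 1588 to 1949, 844 to 1340, 1079 to 1270 and 0 to 16 for H3K27ac, and 0 to 89 for HA. Chosen after seeing the data, HA without both libraries numbered 3 gave 0, and 557 with the block, and nearest coding genes were used beside nearest genes. Requiring all 8 libraries left 2053 members and a distance of 10 kb 1827. Of the regions named, 8 values reversed. Without the second untreated or the first LPS GFP library, values in GFP cells were -0.23 and -0.09 near Cxcl9 (up to 1.07 without others). At the member 4638 bp from Klf10 they were 0.52 and 0.31 (down to -0.73). Near Actb in Nur77 cells 1 member gave 0.11 and 0.31 (down to -0.49) without the second untreated and the first LPS Nur77 library, and the other -0.39 without scaling and -0.10 per kb. The causes were not tested. The part of depth in peaks missing from some libraries was not tested. Motifs in the members were not run.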
